A study of Mus musculus with 22 samples.

Results

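The transcripts of 10 genes that encode sensors of foreign or misplaced nucleic acid, or proteins acting directly beside them, were followed in mouse liver after injection of RNA-loaded lipid nanoparticles. The genes were chosen by name for their known roles, and with earlier results of these data known. They were Zbp1, Ddx58 (the gene for RIG-I, also called Rigi), Ifih1, Dhx58, Eif2ak2, Mavs, Tlr3, Tlr7, Adar and Ripk3. All 10 were found among the 16469 genes of the deposited table, and 9 of them passed the filter on low values, with Tlr3 left untested.

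The data came from 22 livers of C57BL6J mice, each perfused with PBS, extracted whole and sequenced with a kit that reads the 3′ ends of messenger RNAs. The 4 groups were 7 controls, 8 mice given particles carrying Dsi-RNA (a double-stranded RNA cut by Dicer into a short interfering RNA) at 0.2 mg/kg, 3 mice given the same particles at 2 mg/kg, and 4 mice given the inhibitor BLT-1 at 1 mg/kg 24 h before particles at 0.2 mg/kg. BLT-1 is a blocker of lipid transfer by the scavenger receptor SR-BI. Mice were killed 24 h after the particles. The column headers of the deposited table name Hprt1, an older name of Hprt, in the 3 particle groups as what the Dsi-RNA is directed at. The labels do not give what the controls received or the age or sex of the animals, and none of the groups analysed here had BLT-1 alone or particles without RNA.

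Vertebrate cells watch for RNA in 2 places. RIG-I (Ddx58) and MDA5 (Ifih1) bind viral or double-stranded RNA in the cytosol and signal through MAVS on mitochondria, with LGP2 (Dhx58) modulating them. TLR3 and TLR7 read double-stranded and single-stranded RNA in endosomes, the compartment through which lipid nanoparticles enter. The kinase PKR (Eif2ak2) stops translation when it binds double-stranded RNA, ADAR1 (Adar) edits cellular double-stranded RNA so that it is not taken for foreign, and ZBP1 binds Z-form nucleic acid and can recruit RIPK3 to start necroptosis. Many of these genes are themselves induced by type I interferon, through factors that bind interferon-stimulated response elements of the form GAAANNGAAA.

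Promoter windows from RefSeq (build GRCm38.p6, 250 bases before to 50 after each start) were held for 7 of the 10 genes: Ddx58, Ifih1, Eif2ak2, Mavs, Tlr3, Adar and Ripk3. The motif GAAANNGAAA, read on both strands, was in the windows of Ddx58, Ifih1 and Eif2ak2, and in 3.44% of all 32851 windows of the same length. The shorter GAAANNGAA, which the longer motif contains, was also in those of Adar and Ripk3 and in 8.56% of all windows. TTCNNNGAA, the palindromic pattern bound by STAT factors, was in the windows of Adar and Eif2ak2 and in 8.3% of all windows. The 30 bases around a match are shown for the genes whose levels are described next, with the matched letters in capitals. They are given 5′ to 3′ on the gene's strand.
Ifih1, chr2:62646206-62646235, minus strand: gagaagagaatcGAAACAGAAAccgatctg
Ddx58, chr4:40239804-40239833, minus strand: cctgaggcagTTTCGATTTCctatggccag
Eif2ak2, chr17:78882535-78882564, minus strand: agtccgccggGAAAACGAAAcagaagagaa
Adar, chr3:89730738-89730767, plus strand: ttttcaaggaaacGAAAGTGAActctgggg
Ripk3, chr14:55788824-55788853, minus strand: cctcttatttGAAAGGGAAgttgtgaagtc
Counting the annotated start base as 1, the match began at base 33 in Ifih1, 3 in Ddx58, 19 in Eif2ak2, 34 in Adar and 15 in Ripk3. A match is a description of letters and not a shown binding site.

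In the deposited table, libraries held 7152596 to 15101565 reads on genes and ERCC spike-ins together, and 6892714 to 14016665 on genes. Reads that fell on neither are not in these figures. Livers of 1 group varied beyond counting error (chi-square over its degrees of freedom, 10.4 to 65.6 between pairs). Controls 28 and 29 were at 33.7 to 65.6 on this measure with the other 5 controls, against 14.9 with each other. Pairs among the other 5 were at 10.4 to 34.9, so the 2 ranges overlapped slightly. Results were also computed without controls 28 and 29. Levels are CPM, read counts scaled to a common library size after TMM scaling between libraries, and changes were tested both on the deposited values with limma and on recovered whole reads with edgeR, the read-count test. Adjusted p is by Benjamini-Hochberg over all genes tested, and a gene was called below 0.05. Fold changes of both tests are given relative to the median change of all genes. On the log2 scale the limma median was -0.11 at 0.2 mg/kg and -0.23 at 2 mg/kg, and the read-count median -0.0043 and -0.0079. The p-values test the change before this shift, so the limma p-values do not match the printed changes and intervals exactly. The 3 livers at 2 mg/kg stood apart in genes that differ between male and female mice. Xist was at 3.99 ± 1.06 CPM there (SD, n = 3) against 0.160 ± 0.0953 in controls (n = 7), and Ddx3y at 7.55 ± 1.24 against 17.1 ± 0.939, so the higher dose and this pattern cannot be told apart. Hprt, the RNA's target by those headers, was at 24.8 to 38.7 CPM in controls, 26 to 30.9 at 0.2 mg/kg, 24.2 to 28.9 with BLT-1 and 13 to 17.7 at 2 mg/kg, so that the 2 mg/kg livers lay below all others and the rest overlapped. Alb, the hepatocyte marker of highest level, was at 9872 to 16084 CPM over all libraries. In whole tissue, fewer cells of a type and less RNA per cell cannot be told apart.

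By the read-count test with TMM scaling, the sensor transcripts that rose after particles were Zbp1, Ifih1, Dhx58 and Ddx58 at 0.2 mg/kg, and Zbp1, Ifih1, Dhx58, Eif2ak2 and Adar at 2 mg/kg. With size factors from the spike-ins alone, Zbp1 was the 1 gene still called at each dose (adjusted p = 0.00438 and 0.0102). The others had adjusted p of 0.0768 to 0.918 at 0.2 mg/kg and 0.0532 to 0.653 at 2 mg/kg, with log2 fold changes such as 0.93 for Ifih1 and 1.77 for Dhx58 at 0.2 mg/kg and 1.29 for Adar at 2 mg/kg. The ratio of mean CPM to controls was 3.86 and 3.70 for Zbp1 and 3.25 and 4.05 for Dhx58 at 0.2 and 2 mg/kg. The ratio at 2 mg/kg was 2.17 for Ifih1, 2.01 for Eif2ak2 and 2.31 for Adar. At 0.2 mg/kg the read-count test called 4 of 9 tested genes higher, against 2.77% of all genes, and limma called 1, against 0.206%. For the 3 livers at 2 mg/kg the read-count test called 5 of 9 higher, against 3.6%, and limma called 1, against 0.269%. None of the 9 was called lower at either dose, where 2.26% and 3.49% of all genes were by read counts, and 0% and 0.188% by limma. As the genes were chosen with earlier results of these data known, these shares do not test the set.

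**Figure D1:**
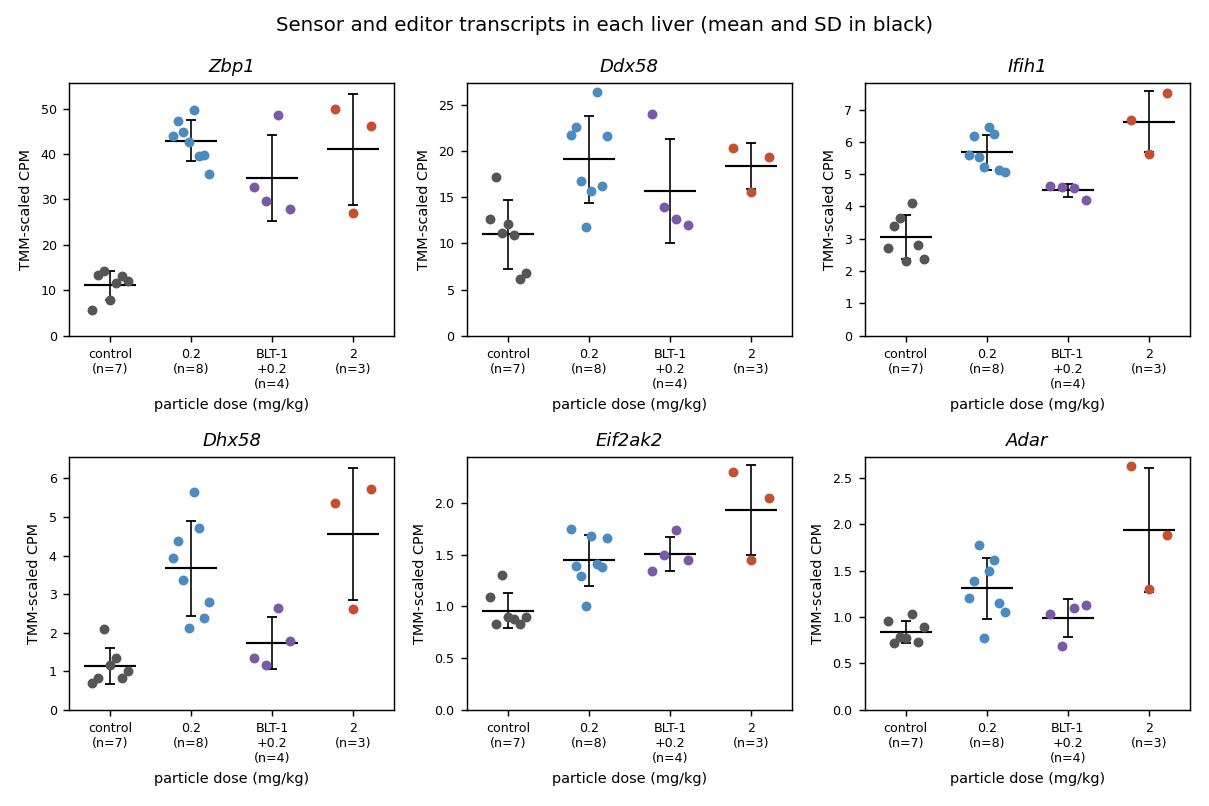
TMM-scaled CPM of the 6 genes in each liver (points, in order of animal number within a group), with group mean and SD in black, for controls, 0.2 mg/kg, BLT-1 before 0.2 mg/kg, and 2 mg/kg. Zbp1 lay at 5.58 to 14.2 CPM in controls and at 27.1 CPM or above in every treated liver.

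Zbp1 was the gene that both tests called at both doses. In the 7 controls it lay between 5.58 and 14.2 CPM with a median of 12. In the 8 livers at 0.2 mg/kg it lay between 35.6 and 49.7 with a median of 43.3, and at 2 mg/kg it was 49.9, 27.1 and 46.2. The treated livers lay above all controls at both doses. The mean rose from 11.1 ± 3.20 to 42.9 ± 4.54 CPM at 0.2 mg/kg, a log2 fold change of 1.99 ± 0.27 (SE; limma adjusted p = 0.00194). The mean at 2 mg/kg was 41.1 ± 12.3 and the log2 fold change 1.87 ± 0.36 (limma adjusted p = 0.0331). The read-count test gave adjusted p values of 9.69e-07 and 1.99e-05. The limma call at 2 mg/kg was lost when control 1, 2, 14, 15 or 28, or animal 3 or 36 at 2 mg/kg, was left out, with adjusted p from 0.0518 to 0.448, and without controls 28 and 29 together (0.0556). It was also lost with the run of animal numbers as a covariate (adjusted p = 0.079, log2 fold change 1.97), where the read-count test kept Zbp1 (adjusted p = 0.000194). The labels do not call these runs batches. The limma call at 0.2 mg/kg held without each library in turn and with the covariate (adjusted p = 0.00891).

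Among the RIG-I-like receptors, Ifih1 and Dhx58 separated the groups and Ddx58 did not. Ifih1 lay between 2.31 and 4.12 CPM in controls (median 2.81), between 5.06 and 6.46 at 0.2 mg/kg (median 5.56), and at 6.69, 5.64 and 7.53 at 2 mg/kg. All treated livers of both doses were above all controls. By read counts Ifih1 rose by a log2 fold change of 0.90 at 0.2 mg/kg (adjusted p = 2.41e-05) and 1.12 at 2 mg/kg (adjusted p = 3.04e-05). By limma the changes were 0.89 ± 0.25 and 1.09 ± 0.34 and were not called, with adjusted p of 0.543 and 0.584.

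Dhx58, with 5 to 67 reads in a library, lay between 0.680 and 2.08 CPM in controls (median 0.992), between 2.11 and 5.66 at 0.2 mg/kg (median 3.65), and at 5.37, 2.60 and 5.73 at 2 mg/kg. The lowest liver at 0.2 mg/kg was just above the highest control. The ratio of means was 3.25 at 0.2 mg/kg (read-count log2 fold change 1.71, adjusted p = 0.000514) and 4.05 at 2 mg/kg (2.02, adjusted p = 0.000556). Limma gave 1.63 ± 0.34 (adjusted p = 0.0635) and 1.92 ± 0.45 (adjusted p = 0.138), and called Dhx58 without animal 18 (adjusted p = 0.0264) or 38 (0.0249) at 0.2 mg/kg and without animal 16 (0.0192) at 2 mg/kg. In the read-count test the calls of Ifih1 and Dhx58 at both doses held without each library in turn.

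Ddx58 lay between 6.14 and 17.2 CPM in controls (median 11.1), between 11.8 and 26.4 at 0.2 mg/kg (median 19.2), and at 20.3, 15.6 and 19.4 at 2 mg/kg. The groups overlapped, and 4 of 8 livers at 0.2 mg/kg were above the highest control. It was called by read counts at 0.2 mg/kg, with a log2 fold change of 0.80 (adjusted p = 0.0324), and not at 2 mg/kg, where the change was 0.75 (adjusted p = 0.124, or 0.0468 without control 2). The call was lost without control 14, 27, 28 or 29 or without animal 4, 5, 31 or 39 at 0.2 mg/kg, with adjusted p from 0.0510 to 0.0727, and without controls 28 and 29 together the log2 fold change was 0.57 (adjusted p = 0.122). Limma gave 0.82 ± 0.32, adjusted p = 1.

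MAVS is the adaptor that RIG-I and MDA5 share, and its transcript was not called at either dose. Mavs lay between 8.44 and 10.6 CPM in controls (median 9.37), between 8.98 and 10.7 at 0.2 mg/kg (median 9.28), and at 9.10, 8.68 and 8.82 at 2 mg/kg. The ranges of the 3 groups overlapped. The limma log2 fold change was 0.01 at 0.2 mg/kg, with a 95% interval from -0.50 to 0.51, and -0.11 at 2 mg/kg, from -0.79 to 0.56.

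Eif2ak2 and Adar, which encode the kinase PKR and the editing enzyme ADAR1, were called at 2 mg/kg by read counts, each with 6 to 24 reads in a library. Eif2ak2 lay between 0.825 and 1.30 CPM in controls (median 0.893), between 1.00 and 1.75 at 0.2 mg/kg (median 1.40), and at 2.30, 1.45 and 2.05 at 2 mg/kg. The 3 livers at 2 mg/kg were above every control, and those at 0.2 mg/kg overlapped the controls. Its read-count log2 fold change was 1.00 at 2 mg/kg (adjusted p = 0.00666) and 0.60 at 0.2 mg/kg (adjusted p = 0.102).

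Adar lay between 0.722 and 1.03 CPM in controls (median 0.782), between 0.778 and 1.78 at 0.2 mg/kg (median 1.30), and at 2.63, 1.30 and 1.88 at 2 mg/kg. All 3 livers at 2 mg/kg were above every control, and 7 of 8 were at 0.2 mg/kg. Its read-count log2 fold change was 1.18 at 2 mg/kg (adjusted p = 0.00207) and 0.64 at 0.2 mg/kg (adjusted p = 0.0982). With animal 3 left out of the 2 mg/kg group, Adar had a log2 fold change of 0.92 (adjusted p = 0.087) and Eif2ak2 of 0.86 (adjusted p = 0.0908), and without animal 36 Eif2ak2 had 0.96 (adjusted p = 0.0669), each with 2 livers left in the group. Limma did not call either gene, with adjusted p of 0.86 and 0.894 at 2 mg/kg for Adar and Eif2ak2.

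Without controls 28 and 29 the read-count test called 3 of 9 sensor genes higher at 0.2 mg/kg, against 2.53% of all genes in that fit, and 5 of 9 at 2 mg/kg, against 5.04%. The count of genes whose lowest treated liver lay above the highest control was 3 at 0.2 mg/kg (Zbp1, Ifih1 and Dhx58), against 1.56% of all genes tested by read counts. At 2 mg/kg it was 5, with Eif2ak2 and Adar added, against 4.22% of all genes. In the 2 mg/kg group, animal 16 had the lowest CPM for 6 of the 6 genes Zbp1, Ddx58, Ifih1, Dhx58, Eif2ak2 and Adar. At 0.2 mg/kg, animal 18 was lowest for 4 of the 6 and animal 30 highest for 3.

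**Figure D2:**
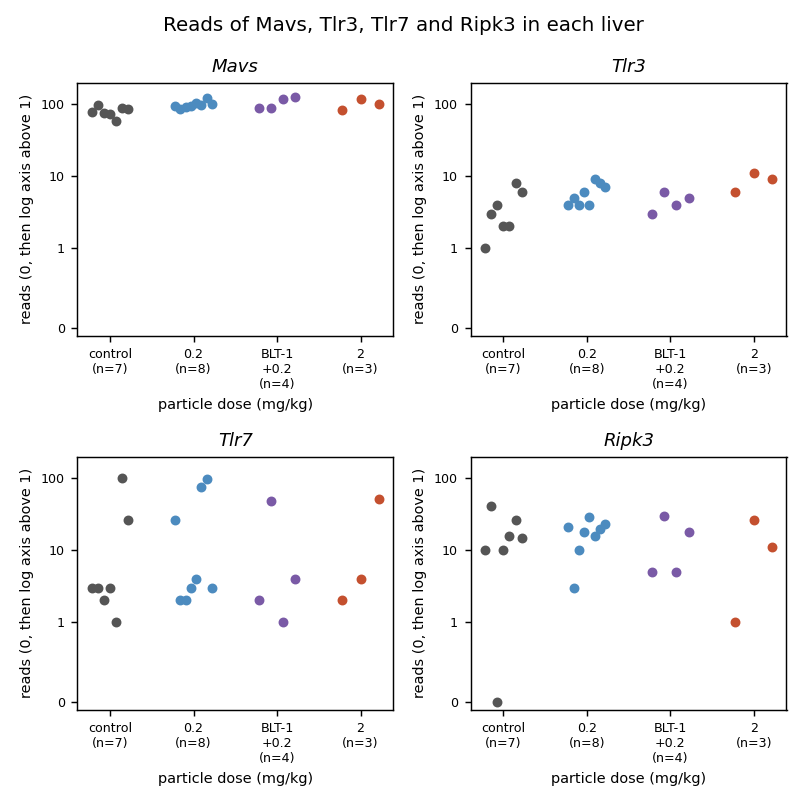
Reads of Mavs, Tlr3, Tlr7 and Ripk3 in each liver (points, in order of animal number within a group), on an axis that is linear from 0 to 1 and logarithmic above. Tlr7 had 26 to 100 reads in 7 livers, spread over all 4 groups, and 1 to 4 reads in the other 15.

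The endosomal receptors gave no call. Tlr3 had 1 to 11 reads in a library and was not tested, with means of 0.421 ± 0.241 CPM in controls (n = 7), 0.565 ± 0.177 at 0.2 mg/kg (n = 8) and 0.741 ± 0.073 at 2 mg/kg (n = 3). Its groups overlapped. Tlr7, on the X chromosome, had 26 to 100 reads in 7 livers and 1 to 4 in the other 15. The 7 livers were controls 28 and 29, animals 4, 31 and 38 at 0.2 mg/kg, animal 7 with BLT-1 and animal 36 at 2 mg/kg, so every group held both kinds of liver. In CPM, Tlr7 ran from 0.147 to 10.4 in controls (median 0.385), from 0.198 to 7.63 at 0.2 mg/kg (median 0.344), and was 0.219, 0.289 and 4.37 at 2 mg/kg. The read-count test did not call it at 0.2 mg/kg (adjusted p = 0.981) or at 2 mg/kg (adjusted p = 0.942).

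Ripk3, the kinase that ZBP1 engages, varied widely within the groups. It ran from 0 to 4.23 CPM in controls (median 1.49) and from 0.320 to 2.57 at 0.2 mg/kg (median 1.80). The livers at 2 mg/kg were at 0.110, 1.88 and 0.942 CPM, and those with BLT-1 (animals 6, 7, 19 and 20) at 0.514, 3.45, 0.457 and 1.45. Control 14 had 0 reads, where 3 reads would be 0.391 CPM, and control 2 had 41. The groups overlapped, and the read-count test did not call Ripk3 at 0.2 mg/kg (adjusted p = 0.922) or at 2 mg/kg (adjusted p = 0.608).

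The doses did not differ by either test for any of the 9 genes, against 5.51% of all genes called by read counts and 0.269% by limma. At an unadjusted p below 0.05 the read-count test had 1 of the 9 genes (Adar), against 1796 of all 10766 tested. Limma had 0, against 391 of 11159. DESeq2 called 0 after adjustment, where 4.74% of all genes were called higher at 2 mg/kg. The 2 mg/kg group against the 0.2 mg/kg group gave limma log2 fold changes of -0.11 for Zbp1 (95% interval -0.85 to 0.62), 0.21 for Ifih1 (-0.47 to 0.89) and 0.30 for Dhx58 (-0.61 to 1.21). For Eif2ak2 it was 0.39 (-0.37 to 1.16) and for Adar 0.52 (-0.32 to 1.37). The intervals of Dhx58, Eif2ak2 and Adar reach past a log2 change of 1. The comparisons of each dose with controls share the same 7 controls.

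**Figure D3:**
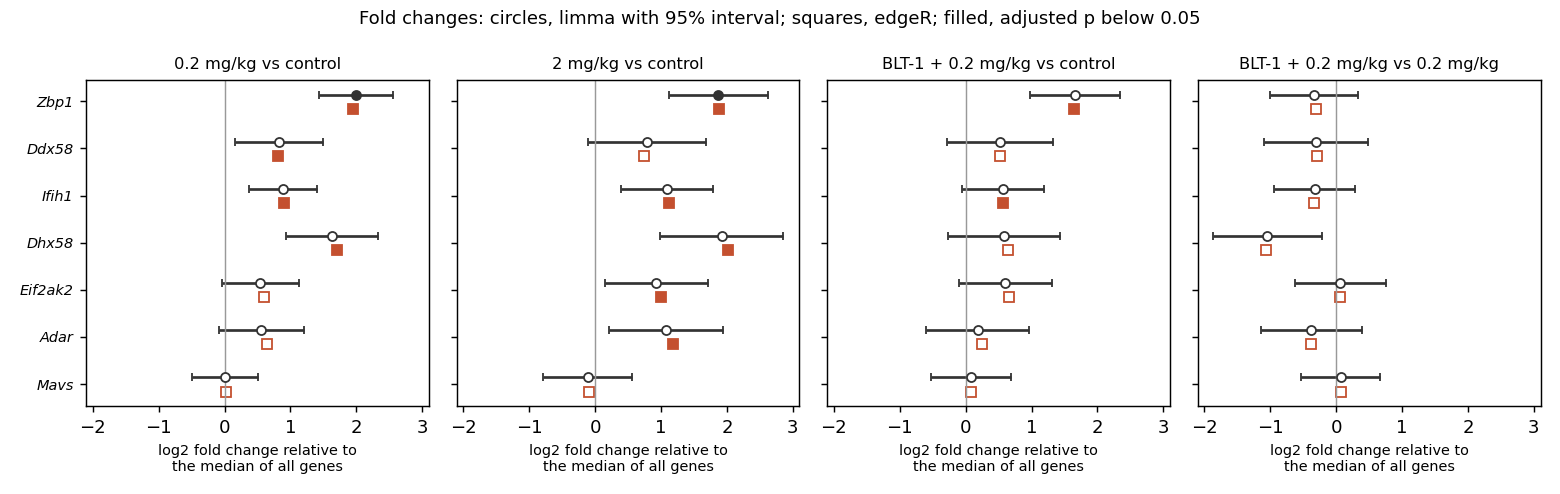
Log2 fold changes relative to the median of all genes in 4 comparisons: circles are limma with 95% intervals, squares are edgeR on read counts, and filled symbols passed adjusted p below 0.05. Zbp1 is filled for both tests at 0.2 and 2 mg/kg, and no symbol is filled for BLT-1 against particles alone.

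BLT-1 before 0.2 mg/kg was compared with 0.2 mg/kg alone. No sensor gene was called, against 0.0929% of all genes by read counts and 0% by limma. At an unadjusted p below 0.05 the read-count test had 2 of the 9 genes (Ifih1 and Dhx58), against 777 of all 10766 tested. Limma had 1 (Dhx58), against 206 of 11159. DESeq2 called 0 after adjustment, where 0.244% of all genes were called higher with BLT-1. In the 4 BLT-1 livers, animals 6, 7, 19 and 20 in that order, Ifih1 was at 4.63, 4.60, 4.57 and 4.19 CPM. Each lay below the lowest liver of 0.2 mg/kg alone, a separation that 0.799% of all genes had in this direction, yet the read-count log2 fold change of -0.34 had an adjusted p of 0.503. Dhx58 was at 1.34, 1.15, 2.65 and 1.77 CPM in the same livers. Animals 6, 7 and 20 lay below the lowest liver of 0.2 mg/kg alone, and the ratio of means was 0.471 (read-count log2 fold change -1.06, adjusted p = 0.269). The limma change was -1.05, with a 95% interval from -1.87 to -0.22 and an adjusted p of 0.994.

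Zbp1 was at 32.7, 29.7, 48.7 and 27.9 CPM in the BLT-1 livers, and 3 of the 4 lay below the lowest of 0.2 mg/kg alone. The difference from 0.2 mg/kg alone was -0.33 by limma, from -1.0 to 0.33. Ddx58 was at 24.0, 14, 12.6 and 12 CPM, with a difference of -0.30, from -1.10 to 0.49. Both ranges overlapped those of particles alone. Eif2ak2 was at 1.34, 1.5, 1.74 and 1.45 CPM, Adar at 1.03, 0.690, 1.10 and 1.13, and Mavs at 9.15, 10.1, 10.9 and 10.1, again overlapping.

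Against the controls, the BLT-1 livers had Zbp1 and Ifih1 called by read counts, 2 of 9 genes higher against 1.65% of all genes and 0 lower against 1.06%. Limma called 0 of 9, against 0.00896% higher and 0% lower. It had 1 of 9 (Zbp1) at an unadjusted p below 0.05, against 315 of all 11159 genes tested. Zbp1 had a ratio of means of 3.13 (limma adjusted p = 0.0938, read-count log2 fold change 1.65, adjusted p = 0.000136) and Ifih1 of 1.47 (0.56, adjusted p = 0.027). The Ifih1 call was lost without BLT-1 animal 6, 7 or 19 or control 1, 15, 28 or 29, with adjusted p from 0.0503 to 0.0855. Zbp1, Ifih1 and Eif2ak2 in the BLT-1 livers did not overlap the controls, against 2.89% of all genes.

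Other genes of these pathways were counted by list, with read-count calls and each list's median limma change, which is 0 over all genes by construction. Of all genes, 2.77% rose and 2.26% fell at 0.2 mg/kg, and 3.6% and 3.49% at 2 mg/kg. Of the RIG-I-like receptor partners, 3 of 20 tested rose and 0 fell at 0.2 mg/kg, with a list median of 0.13, and 2 rose and 1 fell at 2 mg/kg, with a median of 0.04. The interferon regulatory factor Irf7 rose from 8.10 ± 2.28 to 27.6 ± 4.16 CPM (adjusted p = 1.74e-06), the antiviral zinc-finger protein gene Zc3hav1 from 3.09 ± 0.403 to 4.16 ± 0.344 (adjusted p = 0.0225), and Tkfc, whose human protein binds MDA5, from 44.8 ± 2.88 to 54.7 ± 2.04 (adjusted p = 0.00233). At 2 mg/kg Irf7 was at 31.5 ± 8.40 CPM (adjusted p = 8.25e-06) and Zc3hav1 at 4.95 ± 1.34 (adjusted p = 0.00306), both higher than controls. Tkfc fell there, to 35.8 ± 5.11 CPM (adjusted p = 0.00725), the opposite of its change at 0.2 mg/kg, and the doses differed for it by a read-count log2 fold change of -0.60 (adjusted p = 3.04e-05).

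Of the endosomal receptor partners, 1 of 21 rose at 0.2 mg/kg, Rnaset2b (adjusted p = 0.0163), a ribonuclease gene with a near-identical copy, Rnaset2a, so that its reads may be split. The list medians were 0.01 and 0.02 at the lower and higher dose. At 2 mg/kg 2 rose and 1 fell. The cathepsin genes Ctsb (adjusted p = 0.0205) and Ctss (adjusted p = 0.0439) rose and fell respectively, with Unc93b1, the chaperone that carries these receptors to endosomes, at 9.18 ± 0.615 CPM against 6.05 ± 0.885 in controls (adjusted p = 0.00332). Of the cytosolic DNA sensing genes 1 of 15 rose at each dose, with list medians of 0.32 and 0.38. The gene was Ifi203, of a family with similar copies, at 0.2 mg/kg, where it was at 15.2 ± 4.67 against 8.19 ± 0.907 CPM (adjusted p = 0.00118), and Trex1, a DNA exonuclease, at 2 mg/kg, where it was at 4.31 ± 1.31 against 1.88 ± 0.820 CPM (adjusted p = 0.0166). Of the 17 genes of the PKR and eIF2 alpha pathway, 0 rose and 1 fell at 0.2 mg/kg, Dnajc3, a co-chaperone that inhibits PKR, from 46.0 ± 8.62 to 35.4 ± 1.87 CPM (adjusted p = 0.0134). None of the 17 was called at 2 mg/kg, and the list medians were 0.0065 and 0.03.

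Of the 16 necroptosis and inflammasome partners, 2 rose at each dose, with list medians of 0.0033 and 0.15. Gsdmd, the pore-forming executor of pyroptosis, rose from 3.93 ± 0.888 CPM to 7.30 ± 1.22 at 0.2 mg/kg (adjusted p = 0.000146) and 7.97 ± 1.2 at 2 mg/kg (adjusted p = 0.000447). At 0.2 mg/kg the other was Pycard, the inflammasome adaptor ASC, which rose from 0.418 ± 0.136 to 1.40 ± 0.723 CPM (adjusted p = 0.00655). The other at 2 mg/kg was Trim34a, at 1.64 ± 0.542 against 0.681 ± 0.264 CPM (adjusted p = 0.00675). Of 13 RNA editing and double-stranded RNA binding genes, Pnpt1, a mitochondrial RNA-degrading enzyme, was the 1 that rose at each dose, from 2.42 ± 0.468 CPM to 3.99 ± 0.440 (adjusted p = 0.00305) and 3.88 ± 0.747 (adjusted p = 0.0245). The list medians there were -0.00019 and -0.05. BLT-1 before 0.2 mg/kg against 0.2 mg/kg alone gave 0 calls in each of these 6 lists, where 0.0929% of all genes were called by read counts.

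Some markers of liver cell types moved beside these changes, and their part in the results was not tested. By read counts 2.77% of all genes rose and 2.26% fell at 0.2 mg/kg, and 3.6% rose and 3.49% fell at 2 mg/kg. Of 12 Kupffer cell markers, 3 fell at 0.2 mg/kg and 4 at 2 mg/kg by read counts. Their summed level was 80.9 to 111 CPM in controls, 63.8 to 95.2 at 0.2 mg/kg, 68.6 to 98.9 with BLT-1 and 58.5 to 78.1 at 2 mg/kg. Of 5 monocyte markers tested, 2 rose and 1 fell at 0.2 mg/kg, and 1 rose at 2 mg/kg. The sum of all 9 in the table was 46.1 to 79.4 CPM in controls, 58.9 to 81.8 at 0.2 mg/kg, 66.6 to 70.6 with BLT-1 and 80.6 to 91.0 at 2 mg/kg. Of 9 hepatocyte markers, 2 fell at 0.2 mg/kg and 4 at 2 mg/kg, and their sum was 24111 to 28343 CPM in controls, 21529 to 23887 at 0.2 mg/kg, 21323 to 22759 with BLT-1 and 18260 to 22440 at 2 mg/kg. The hepatocyte sum of every treated liver lay below all controls. Alb, its largest member, had a mean of 13967 CPM in controls and 11797 at 0.2 mg/kg. Ttr was higher at 0.2 mg/kg, at 5572 against 5166 CPM, and the other markers had lower means. The neutrophil sum over 6 markers was 7.34 to 60.0 CPM in controls, 16.1 to 34.5 at 0.2 mg/kg, 16 to 60.3 with BLT-1 and 40.2 to 112 at 2 mg/kg. Its S100a9 was called higher at 2 mg/kg (adjusted p = 0.0439). The T and NK cell sum over 8 markers was 5.77 to 15.3 CPM in controls, 9.39 to 14.2 at 0.2 mg/kg, 7.82 to 11.4 with BLT-1 and 16.6 to 21.3 at 2 mg/kg, above every control, with Ccl5 called there (adjusted p = 0.0443). Of 10 sinusoidal endothelial markers 1 rose at each dose. Pecam1 rose at 0.2 mg/kg, from 11.5 ± 5.50 to 29.5 ± 11.1 CPM (adjusted p = 0.00565), and was lower with BLT-1 than with 0.2 mg/kg alone, at 6.03 ± 1.46 CPM (adjusted p = 0.0151). It did not rise at 2 mg/kg, where it was at 6.90 ± 1.28 CPM. That was also lower than at 0.2 mg/kg (read-count log2 fold change -2.09, adjusted p = 0.00337). Lyve1 rose at 2 mg/kg (adjusted p = 0.00525). The summed sinusoidal levels overlapped between all groups.

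The genes whose levels were most like those of each sensor over all 22 livers were named by a fixed rule, among 4493 genes with a mean of at least 5 CPM. The r values describe livers that share groups, so the r of values centred on group means stands beside each. Zbp1 was most like Mpeg1 (r = 0.97, centred 0.68), Irf7 (0.96, centred 0.73) and Psmb8 (0.96, centred 0.67). Ifih1 was most like Ly6e (0.94, centred 0.67), Rtp4 (0.94, centred 0.63) and Shisa5 (0.94, centred 0.67). Dhx58 was most like Ifit3 (0.96, centred 0.88), Trim30a (0.93, centred 0.81) and Rtp4 (0.92, centred 0.72). For Adar they were Usp18 (0.88, centred 0.66), Trim30a (0.86, centred 0.61) and Rsad2 (0.85, centred 0.59). For Eif2ak2 they were Usp18 (0.85, centred 0.59), H2-T22 (0.83, centred 0.45) and Ly6a (0.82, centred 0.51). Ddx58 was less closely matched, by Tapbp (0.81, centred 0.62), Coa3 (0.77, centred 0.79) and Sppl2a (0.75, centred 0.47). Mavs was most like Rhot1 (0.79, centred 0.74), Ccnt2 (0.72, centred 0.78) and Eif5b (0.68, centred 0.69). Tlr3 was most like Tnfrsf1a (0.74, centred 0.64), Tmem53 (0.73, centred 0.64) and Snrpd1 (0.72, centred 0.59). For Tlr7 they were Eif3c (0.68, centred 0.70), Copb2 (0.68, centred 0.68) and Ddx56 (0.66, centred 0.66). For Ripk3 they were Soat1 (0.66, centred 0.69), Oard1 (0.66, centred 0.66) and Serinc1 (0.62, centred 0.65). Each r is among the 3 largest of 4493 for its sensor, and none was tested against chance. These are descriptions over 22 livers that share library preparation and depth.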

How the data were processed

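Whole-liver RNA of 22 mice was sequenced with a 3′ mRNA kit and ERCC spike-ins, per the labels' protocols. Per the submitters' processing notes, bcl2fastq, Trim Galore 0.6.7, STAR 2.7.9a, Salmon 1.5.2, R 4.1.1 and DESeq2 1.32.0 were used with GRCm39. The deposited signal per gene was scaled by the authors and is not whole reads. Each library's whole reads were recovered by dividing its values by its smallest value above 0, taken as 1 read (100% of values whole within 0.001). No molecular barcodes were used here, so counts cover counting error only and copies of a molecule were not removed. The strand setting of the counting is not given in the sources used here, and Ifih1, Dhx58, Eif2ak2, Adar and Ripk3 overlap other annotated genes in RefSeq, whose reads cannot be told apart.

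Main tests were limma 3.58.1 with trend on log2(deposited signal + 1), 22 libraries together, genes at 10 or more in at least 3 libraries (11159 genes), and, beside it, edgeR 4.0.16 quasi-likelihood on recovered reads after TMM and filterByExpr (10766 genes), in R 4.3.3. The design table assumed a signal per gene, and edgeR was run on the recovered reads. Limma fold changes are on the log2(value + 1) scale and understate the change of low genes. The edgeR fold changes come from the read counts and are not on that scale. Both tests were tested on simulated data. Groups came from GEO's labels, and replicates are separately numbered animals. Named genes followed the rule that all 10 sensors are named, with up to 4 called genes per list and 3 most alike genes per sensor. Alternatives were other pseudocounts, filters, scalings and DESeq2 1.42.0, and leaving out each library. The sensors and lists were chosen with earlier results of these data known.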

Additional observations from a re-analysis of the deposited data

Results flagged for a closer look

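In 30 sets of values, each of 1 sensor gene in a group of 4 to 8 livers, 4 had 1 liver set apart by a gap large for the range of its group. Chance alone gives about 1 in 20 of such groups. Ddx58 in BLT-1 animal 6 was 24.0 CPM, with the nearest other liver at 14. Ifih1 in BLT-1 animal 20 was 4.19 CPM, with the nearest at 4.57. The 4 BLT-1 livers had 40 to 52 Ifih1 reads, and whether this small gap exceeds counting error was not tested. Tlr7 in control 28 was 10.4 CPM, with the nearest at 2.58. Tlr7 in BLT-1 animal 7 was 5.52 CPM, with the nearest at 0.322.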

How the results depend on the processing

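No paired analysis was possible because each animal number occurs once. Runs of animal numbers, which the labels do not call batches, were used as a covariate. After each set of counts of called sensor genes, the share of all genes called higher in the same fit is given. Limma called 1 at 0.2 mg/kg, 1 at 2 mg/kg and 0 with BLT-1 against controls (0.206%, 0.269% and 0.00896%). EdgeR on read counts called 4, 5 and 2 (2.77%, 3.6% and 1.65%), and limma on TMM-rescaled values 5, 5 and 3 (3.28%, 3.89% and 1.88%), so these counts moved together with the calls over all genes. Limma at 2 mg/kg called 0 at an adjusted p limit of 0.01 (0.0807%), 0 with the covariate (0.224%), 0 without controls 28 and 29 (0.298%) and 0 with only the groups compared (0.205%), where it called 2 at 0.2 mg/kg (0.383%). Leaving out each library gave 1 to 2 at 0.2 mg/kg (0.162% to 0.287%) and 0 to 2 at 2 mg/kg (0.0449% to 0.422%). EdgeR with spike-in size factors called 1, 1 and 0 (0.223%, 0.418% and 0%). With BLT-1 against controls it called 1 at an adjusted p limit of 0.01 (0.845%), 1 with only the groups compared (1.45%) and 1 without controls 28 and 29 (1.97%). Leaving out each library gave 3 to 4 at 0.2 mg/kg (2.36% to 2.72%), 3 to 6 at 2 mg/kg (1.89% to 4.03%) and 1 to 2 with BLT-1 against controls (1.07% to 1.57%). No value whose sign turned was called. Mavs at 0.2 mg/kg was 0.01 by limma and -0.0043 with no filter, -0.0093 with pseudocount 10 and -0.035 without controls 28 and 29 (edgeR -0.032), or -0.022 to 0.040 leaving out each library (edgeR -0.015 to 0.045). Between doses, Zbp1 was -0.06 by edgeR and 0.027 with spike-in size factors, and leaving out each library gave -0.30 to 0.17 (edgeR -0.23 to 0.17). Ddx58 between doses gave -0.12 to 0.092 (edgeR -0.12 to 0.059), and Eif2ak2 with BLT-1 against 0.2 mg/kg -0.0051 to 0.10 (edgeR -0.021 to 0.11). The cause was not tested. Tlr7 changed sign in 35 of 182 alternative fits and Ripk3 in 12 of 184, called in 0; Tlr7 at 2 mg/kg was 0.03 by limma and -0.40 by edgeR, and Ripk3 at 0.2 mg/kg 0.13 and -0.22. Dhx58, Adar, Eif2ak2, Tlr3 and Ripk3 had under 70 reads in a library, which limits what can be told of them.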

Other observations

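Within the groups, some sensor transcripts varied together from liver to liver. With each value centred on its group mean over the 22 livers, Dhx58 had r = 0.68 with Eif2ak2, 0.63 with Adar, 0.59 with Ifih1 and 0.58 with Zbp1, and Zbp1 had 0.53 with Ifih1. Ddx58 had r = -0.12 with Zbp1 and 0.18 with Dhx58, its partner in the same receptor family. Tlr3 and Tlr7 had 0.69, and Ripk3 had -0.45 with Adar and -0.48 with Dhx58. These values describe livers that share library preparation and depth, and several of the genes had under 30 reads in a library.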
